A study of Mus musculus with 6 samples.

Results

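The transcripts described here mark leukocytes and were read in cells sorted for lacking the leukocyte protein CD45. The members are 39 genes that are used to recognize leukocytes in general or one of their lineages: 5 pan-leukocyte genes, 8 T cell genes, 5 genes of cytotoxic T and natural killer (NK) cells, 4 B cell genes, 14 genes of macrophages and other myeloid cells, and 3 genes of dendritic precursors and granulocytes. They were chosen by name, and array probes were assigned to them through the transcript accession in the scanner tables. Of the 39 genes, 37 had a probe and 23 passed the filter on dim probes, out of 22503 genes tested on the arrays. Trac and Ly6g were not matched to a probe, so no signal is given for them, and Ly6g enters only the counts of promoter sequences.

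The RNA came from live CD45- cells of MMTV-PyMT mammary tumors, in which the mouse mammary tumor virus promoter drives the polyomavirus middle T oncogene. Late carcinoma cells of RANK+/+ or RANK-/- genotype, on the C57BL/6 strain, had been transplanted orthotopically into syngeneic C57BL/6 mice, so the hosts of both groups kept their own immune system. Each 2-color array held 1 RNA of each genotype, and 3 pairs of RNAs were each hybridized to 2 technical replicate arrays. Separate tumors as the source of the 3 RNAs of one genotype are not stated in the labels, so every p value measures only the spread between these pairs.

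CD45, encoded by Ptprc, is a tyrosine phosphatase carried on the surface of all nucleated blood cells, and it sets the threshold of antigen receptor signaling in lymphocytes. Sorting on CD45 acts on a surface protein and removes whole cells, whereas the array reads RNA in what is left. Lymphocytes are recognized by the chains of their antigen receptors and by cytotoxic granule proteins, and myeloid cells by Fc receptors, their adaptor chains, integrins and lysosomal proteins. In a sorted bulk RNA, fewer cells of a type and less RNA per cell cannot be told apart.

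RANK is encoded by Tnfrsf11a, and its transcript went against the labels. The Tnfrsf11a log2 ratio, RANK-/- over RANK+/+ here and for every ratio that follows, was 2.03 in pair 1, 1.15 in pair 2 and 1.76 in pair 3. In every pair, then, the RNA labeled RANK-/- gave more Tnfrsf11a signal than its partner, and whether the probe lies in the deleted part of the gene is not given in the sources used here. Whether the channel labels are right was not tested, and every direction given for a genotype is that of the label and would turn if they were exchanged. In pair 1 the RNA labeled RANK-/- was in Cy5, and in pairs 2 and 3 it was in Cy3, by the labels, so a difference between pair 1 and the other pairs cannot be told apart from a difference between the dyes. The study's methods describe dye swaps for each sample, whereas the labels give both arrays of a pair the same dyes, and every statement on dyes and every ratio here follows the labels. Across the genes tested, the ratios of pairs 1 and 2 correlated at r = -0.28, those of pairs 1 and 3 at r = 0.18 and those of pairs 2 and 3 at r = -0.08.

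Many myeloid and lymphoid genes hold purine-rich letters near their start that are bound by the ETS factor PU.1, which is itself encoded by the member Spi1. The letters GAGGAA, or TTCCTC on the other strand, occurred in 28.3% of 32851 RefSeq promoter windows, each running from 250 bases before to 50 after a gene's start. Among the members, 28 had such a window, and 18 of these 28 had the letters in at least 1 window. Counted by window, this was 60.6% of 33 member windows. The longer letters GAGGAAGT, or ACTTCCTC on the other strand, occurred in 3.2% of all windows and in 12.1% of member windows. Of the 28 members with a window, 3 had these longer letters. The windows of 3 myeloid or pan-leukocyte members whose levels moved together are shown, from RefSeq and on build GRCm38.p6, with the letters in capitals. The Aif1 window lies at chr17:35176003-35176302 (minus strand) and holds the letters 7 bases before the start. The Laptm5 window lies at chr4:130913066-130913365 (plus strand) and holds them 38 bases before the start. The Fcer1g window lies at chr1:171234300-171234599 (minus strand) and has no match. A match describes the letters of the window and not a bound site.
Aif1: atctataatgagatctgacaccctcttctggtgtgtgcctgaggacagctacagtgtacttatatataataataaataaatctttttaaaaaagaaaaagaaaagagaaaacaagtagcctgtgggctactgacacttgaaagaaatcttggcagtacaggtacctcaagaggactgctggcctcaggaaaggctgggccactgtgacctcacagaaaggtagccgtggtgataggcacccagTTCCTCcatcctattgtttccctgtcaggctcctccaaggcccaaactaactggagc
Laptm5: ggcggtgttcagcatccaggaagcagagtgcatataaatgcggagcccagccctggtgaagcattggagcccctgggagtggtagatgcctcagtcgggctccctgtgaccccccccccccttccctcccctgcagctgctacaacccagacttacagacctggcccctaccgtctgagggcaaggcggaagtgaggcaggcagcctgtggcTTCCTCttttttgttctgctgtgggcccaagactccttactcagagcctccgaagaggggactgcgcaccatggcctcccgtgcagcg
Fcer1g: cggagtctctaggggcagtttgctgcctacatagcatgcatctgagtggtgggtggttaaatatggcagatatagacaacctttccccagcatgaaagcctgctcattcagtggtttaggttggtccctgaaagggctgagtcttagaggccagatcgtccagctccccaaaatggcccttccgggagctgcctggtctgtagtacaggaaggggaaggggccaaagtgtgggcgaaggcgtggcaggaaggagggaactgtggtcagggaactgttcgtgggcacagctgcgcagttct

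Some leukocyte transcripts were above background in each of the 6 RNAs, in unequal numbers. By the brightest probe of each gene, Feature Extraction called a member well above background on both arrays in 30 of the 37 members with a probe in the RANK+/+ RNA of pair 1 and in 23 in its RANK-/- partner. In pair 2 the numbers were 21 in the RANK+/+ RNA and 28 in the RANK-/- RNA, and in pair 3 they were 16 and 18. The RNA in Cy3 thus had more members above background than its partner in Cy5 in every pair, whichever genotype it carried. Over all 55681 gene probes the share above background ran only from 49.7% to 54.2%, and here the Cy3 RNA was ahead in pairs 1 and 2 and behind in pair 3. The members' share was above that of all probes in pairs 1 and 2, at 56.8% to 81.1%, and below it in pair 3, at 43.2% in the RANK+/+ RNA against 53.3% of all probes and 48.6% in the RANK-/- RNA against 52.6%. Ptprc, Laptm5 and Itgax were above background on 0 arrays in the RANK+/+ RNA of pair 3.

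**Figure D1:**
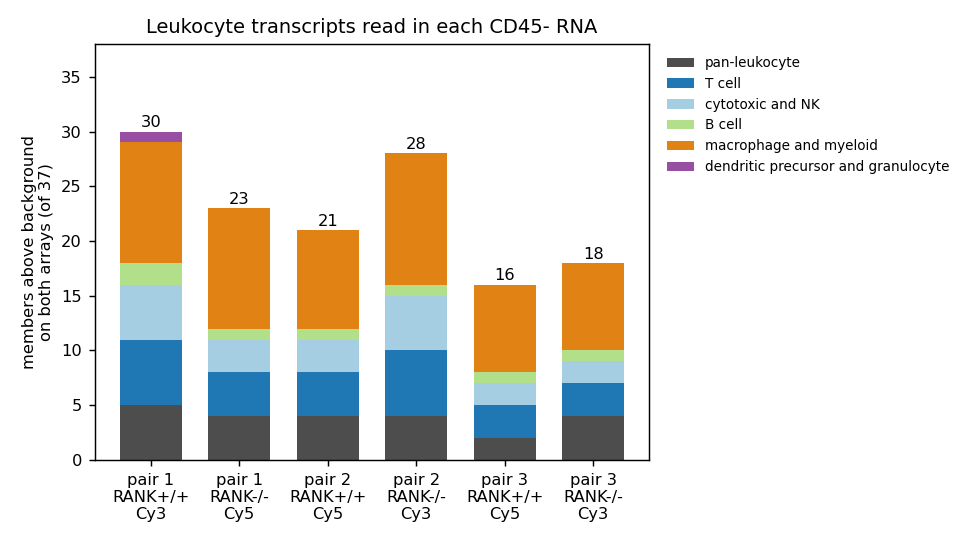
Number of members called well above background on both technical replicate arrays in each of the 6 RNAs, of 37 with a probe, stacked by lineage list, with pair, labeled genotype and dye under each bar. The RANK+/+ RNA of pair 1 has 30 and that of pair 3 has 16, and the Cy3 bar is the taller one in every pair.

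By lineage, the myeloid list gave the most members above background, 8 to 12 of its 14 in an RNA. The T cell list had 3 to 6 of 7, the cytotoxic list 2 to 5 of 5 and the pan-leukocyte list 2 to 5 of 5. The B cell list had 1 or 2 of 4, and that 1 was Cd22, a sialic acid-binding receptor that restrains B cell receptor signaling. Over both channels of all 6 arrays, 5 members were at no time above background: Cd79a, the Igα chain of the B cell receptor, Ms4a1, which encodes CD20, the hemoglobin scavenger receptor Cd163, Spi1, and the cytokine receptor Flt3. These 5 include defining genes of B cells and of the myeloid lineage, and for them the arrays give no more than a level not well above background. They are 5 of 37 members with a probe, where 17401 of all 55681 gene probes were never above background. Members were thus less often without signal than probes in general. At the other end, 15 members were above background in every reading, a count for which the share of all probes is not given here.

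Of the rest, 8 were above background on some arrays and were tested, and 9 were above background on some arrays but did not pass the filter. These 9 were not tested. Among them, 8 were above background on both arrays of the RANK+/+ RNA of pair 1, namely the tetraspanin Cd53, the T cell receptor chains Cd3d and Cd3g, granzyme B (Gzmb), the NK receptor chain Klrd1, the B cell receptor chain Cd79b, the high-affinity IgG receptor Fcgr1 and myeloperoxidase (Mpo). Cd8a, the T cell co-receptor chain of cytotoxic cells, was above background by its brighter probe on 1 array of a RANK+/+ RNA and on 0 arrays of a RANK-/- RNA. The dimmer Cd8a probe was above background on 2 arrays in the RANK+/+ channel and on 0 in the RANK-/- channel. In pair 1 the Cd3d ratio was -1.19 and the Cd3g ratio was -1.16. The RANK-/- RNA of pair 1 was not well above background for Cd3d on either array, so its ratio there has a dim side. In pair 2, Cd3d had a ratio of 0.21 and Cd3g of 0.34. These receptor chains, whose proteins assemble in one complex, therefore lay on opposite sides of 0 in pairs 1 and 2, and in pair 3 both genes had levels close to the floor.

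The floor, the median normalized log2 intensity of the 17401 gene probes never above background, was 5.96 to 5.97 in the 6 RNAs. Ptprc lay just above it in most of them. Its log2 intensity was 7.38 in the RANK+/+ RNA and 6.45 in the RANK-/- RNA of pair 1, 6.34 and 6.45 in those of pair 2, and 6.08 and 6.22 in those of pair 3. The transcript of the sorted protein was thus highest in the RANK+/+ RNA of pair 1, and the other 5 RNAs lay within a narrow band. Its probe was above background on 5 of 6 arrays in the RANK-/- channel and on 4 of 6 in the RANK+/+ channel. The mean log2 ratio of Ptprc was -0.23 ± 0.61 (SD, n = 3 pairs), with a 95% interval from -0.97 to 0.51 and a limma adjusted p of 0.999.

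The other pan-leukocyte members repeated the order of Ptprc in part. Coro1a, an actin-binding protein of leukocytes, had the lowest mean ratio of the list. Its log2 intensity was 9.26 in the RANK+/+ RNA and 8.34 in the RANK-/- RNA of pair 1, 7.63 and 7.62 in those of pair 2, and 7.06 and 7.13 in those of pair 3. Both RNAs of pair 1 stood above all the others, and within pairs 2 and 3 the genotypes hardly differed. The mean log2 ratio of Coro1a was -0.29 ± 0.55 (SD, n = 3), with an interval from -0.97 to 0.40 (limma adjusted p = 0.999). Cd52, a small glycoprotein anchored in the lymphocyte membrane, had the highest mean of the list. Cd52 gave a log2 intensity of 10.32 in the RANK+/+ RNA and 9.93 in the RANK-/- RNA of pair 1, 8.46 and 8.76 in those of pair 2, and 6.89 and 8.47 in those of pair 3. The signal differed more between pairs than between the genotypes, except in pair 3, where the RANK-/- RNA was the higher by 1.58. Over the pairs, Cd52 had a mean log2 ratio of 0.50 ± 1.00 (SD, n = 3), with an interval from -0.63 to 1.62 (limma adjusted p = 0.999). Laptm5, a lysosomal protein that lowers antigen receptor levels, had ratios of -0.98 in pair 1, 0.59 in pair 2 and 0.26 in pair 3, and its second probe gave the same signs.

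**Figure D2:**
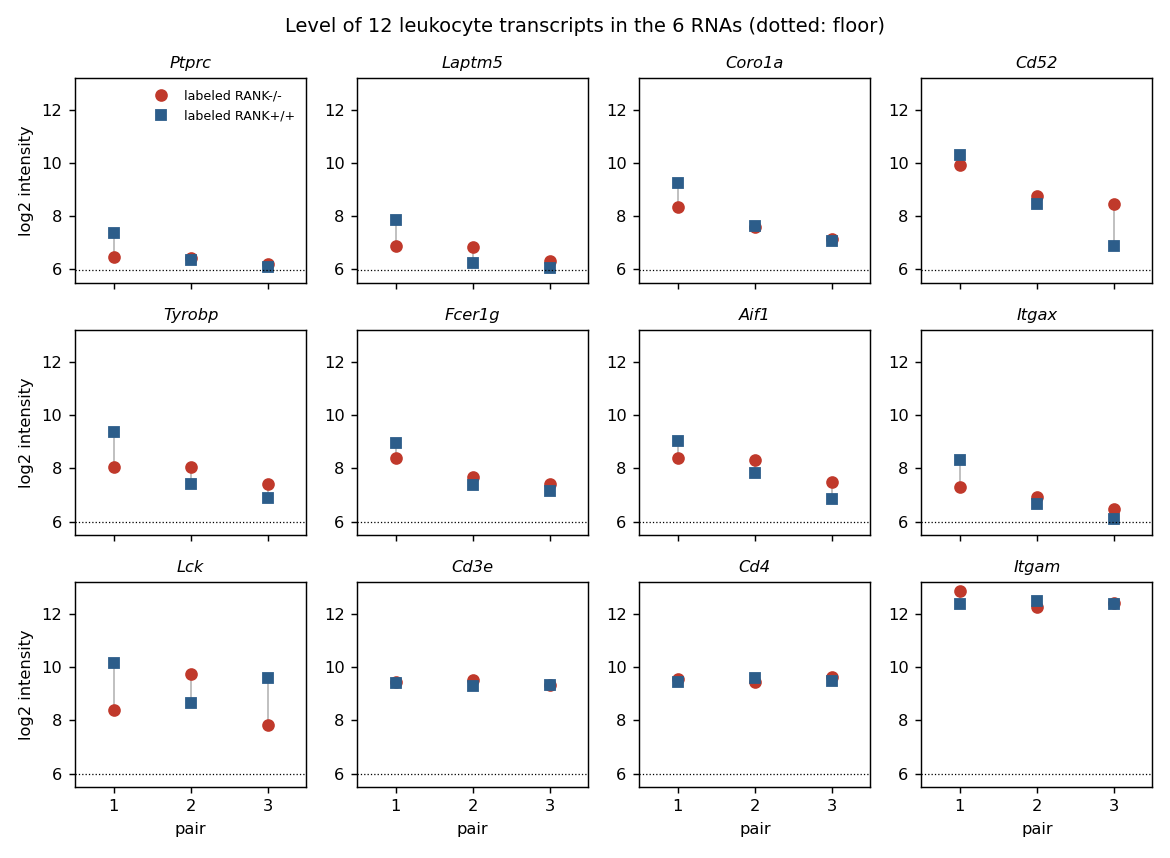
Normalized log2 intensity of 12 members in the 6 RNAs, by pair, with circles for RNAs labeled RANK-/- and squares for those labeled RANK+/+, each point being the mean of 2 technical replicate arrays, and a dotted line at the floor of 5.97. Ptprc, Laptm5, Coro1a, Cd52, Tyrobp, Fcer1g, Aif1 and Itgax are brightest in pair 1 and dimmest in pair 3 on average, whereas Cd3e, Cd4 and Itgam differ little and Lck changes sign with the pair.

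Among T cell genes the tested members did not move as one. Cd3e, a signaling chain of the T cell receptor complex, had the highest mean ratio. Its log2 intensity was 9.41 in the RANK+/+ RNA and 9.43 in the RANK-/- RNA of pair 1, 9.31 and 9.51 in those of pair 2, and 9.32 and 9.34 in those of pair 3. All 6 RNAs lay within 0.20 of each other, although Cd3d and Cd3g, which encode chains of the same complex, were at background in pair 3. The mean log2 ratio of Cd3e was 0.08 ± 0.11 (SD, n = 3), with an interval from -0.30 to 0.46 (limma adjusted p = 0.999). Lck, the kinase that starts T cell receptor signaling, had the lowest mean and the widest spread of all members. Lck gave a log2 intensity of 10.18 in the RANK+/+ RNA and 8.39 in the RANK-/- RNA of pair 1, 8.65 and 9.76 in those of pair 2, and 9.61 and 7.83 in those of pair 3. The RANK-/- RNA was lower in pairs 1 and 3 and higher in pair 2. Over the pairs, Lck had a mean log2 ratio of -0.82 ± 1.67 (SD, n = 3), with an interval from -2.63 to 0.98 (limma adjusted p = 0.999).

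Cd4, the co-receptor of helper T cells, had ratios of 0.11, -0.14 and 0.15 in pairs 1, 2 and 3 by its brighter probe. A second Cd4 probe was above background on 1 array in each genotype's channel, so the probes of this gene differed in whether a transcript was read at all. The adhesion receptor Cd2 had ratios of -0.85, -0.01 and -0.003 in the same order, and of its probes too, one was above background only once in 6 arrays of RANK+/+ RNA and the other on 5 of 6 arrays of each genotype.

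Cytotoxic granule genes were lower in the RNA labeled RANK-/- in pair 1 and close to 0 or above it in pair 2. Nkg7, a membrane protein of cytotoxic granules, had the highest mean ratio of the 3 tested. Its log2 intensity was 9.26 in the RANK+/+ RNA and 9.10 in the RANK-/- RNA of pair 1, 9.14 and 9.17 in those of pair 2, and 8.97 and 9.34 in those of pair 3. The genotypes overlapped, and the mean log2 ratio was 0.08 ± 0.27 (SD, n = 3), with an interval from -0.38 to 0.54 (limma adjusted p = 0.999). The dimmer Nkg7 probe gave -0.89 in pair 1, 0.26 in pair 2 and 0.02 in pair 3. Gzma, the granzyme A protease, had the lowest mean. Gzma was read at a log2 intensity of 7.49 in the RANK+/+ RNA and 6.43 in the RANK-/- RNA of pair 1, 6.44 and 6.75 in those of pair 2, and 6.11 and 6.05 in those of pair 3. The RANK+/+ RNA of pair 1 stood alone above the others, which overlapped, and in pair 3 neither RNA was above background on any array. Gzma had a mean log2 ratio of -0.27 ± 0.71 (SD, n = 3), with an interval from -1.10 to 0.56 (limma adjusted p = 0.999). Prf1, the pore-forming protein perforin, had ratios of -0.31, 0.06 and 0.05 in pairs 1, 2 and 3.

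Cd22 was the only B cell member that was tested. Cd22 was read at a log2 intensity of 7.98 in the RANK+/+ RNA and 8.09 in the RANK-/- RNA of pair 1, 8.06 and 7.70 in those of pair 2, and 7.59 and 7.90 in those of pair 3. The genotypes overlapped and the sign changed with the pair, and the other B cell receptor genes on the list were at or near background in the same RNAs. Cd22 had a mean log2 ratio of 0.02 ± 0.34 (SD, n = 3), with an interval from -0.50 to 0.53 (limma adjusted p = 0.999).

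The myeloid list was the largest, with 11 members tested. Aif1, a calcium-binding protein of macrophages, had its highest mean ratio. Its log2 intensity was 9.04 in the RANK+/+ RNA and 8.38 in the RANK-/- RNA of pair 1, 7.82 and 8.31 in those of pair 2, and 6.85 and 7.47 in those of pair 3. The RANK-/- RNA was lower in pair 1 and higher in the other pairs. The mean log2 ratio of Aif1 was 0.15 ± 0.71 (SD, n = 3), with an interval from -0.68 to 0.98 (limma adjusted p = 0.999). Cd68, a lysosomal glycoprotein of macrophages, had the lowest mean of the list. For Cd68 the log2 intensity was 9.85 in the RANK+/+ RNA and 9.59 in the RANK-/- RNA of pair 1, 9.85 and 9.43 in those of pair 2, and 8.84 and 9.10 in those of pair 3. Here it was pair 3 that differed in sign from the others. The mean log2 ratio of Cd68 was -0.14 ± 0.36 (SD, n = 3), with an interval from -0.66 to 0.38 (limma adjusted p = 0.999).

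The adaptor chains of Fc and other activating receptors had the signs of Aif1 in each pair. Tyrobp, the adaptor of activating receptors also known as DAP12, had ratios of -1.32 in pair 1, 0.63 in pair 2 and 0.51 in pair 3. Fcer1g, the common gamma chain of Fc receptors, had ratios of -0.58, 0.30 and 0.26 in the same order. Both adaptors were thus less abundant in the RANK-/- RNA of pair 1 and more abundant in that of the other pairs. Fcgr3, a low-affinity IgG receptor, had ratios of -0.27, 0.26 and -0.05, and it was above background on 4 arrays in the RANK-/- channel and 3 in the RANK+/+ channel. Itgax, the integrin CD11c, had ratios of -0.98, 0.25 and 0.38. Itgam, the integrin CD11b, ran the other way, with ratios of 0.49 in pair 1, -0.23 in pair 2 and 0.03 in pair 3. Its brightest probe, which gave these values, was above background everywhere at log2 intensities from 12.28 to 12.87. The same gene's other probes gave 0.12 and 0.01 in pair 1. In pair 2 those probes gave 0.10 and 0.11, so the value below 0 there came from the brightest probe alone.

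The remaining myeloid members were receptors and enzymes of macrophages. Csf1r, the receptor for macrophage colony-stimulating factor, had ratios of -0.65 in pair 1, 0.07 in pair 2 and 0.57 in pair 3 by the brightest of 3 probes. In pair 1 its dimmer probes gave -0.03 and -0.40, so the sign was shared and the size was not. Adgre1, an adhesion-type surface receptor of macrophages, had ratios of -0.28, 0.25 and -0.06, and Lyz2, the myeloid lysozyme, had ratios of -0.10, 0.24 and 0.13. Mrc1, the mannose receptor, had ratios of 0.41, 0.64 and -0.77. Its RANK-/- RNA in pair 3 was above background on 0 arrays, so the last value is set against a reading at background, and it was -3.59 with processed signals.

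No member passed the test of a genotype difference. The limma fit called 0 of the 23 tested members at an adjusted p under 0.05, where it called 0% of the 22503 genes tested. At an unadjusted p under 0.05 it held 646 genes and 0 members, and the smallest unadjusted p of a member was 0.281, for Cd2. Every 95% interval of a member held 0, as did those of all but 646 of the 22503 genes tested. The SD over the 3 pairs was larger than the absolute mean ratio in all 23 members, and the share of all genes is not given for this. The median SD of the members over the pairs was 0.49. Rank product, the kind of test named in the methods of the study, called 0 members and 0.0311% of 22501 genes, and its smallest proportion of false positives for a member was 0.429. With 3 pairs an exact two-sided sign-flip test cannot give a p below 0.25.

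**Figure D3:**
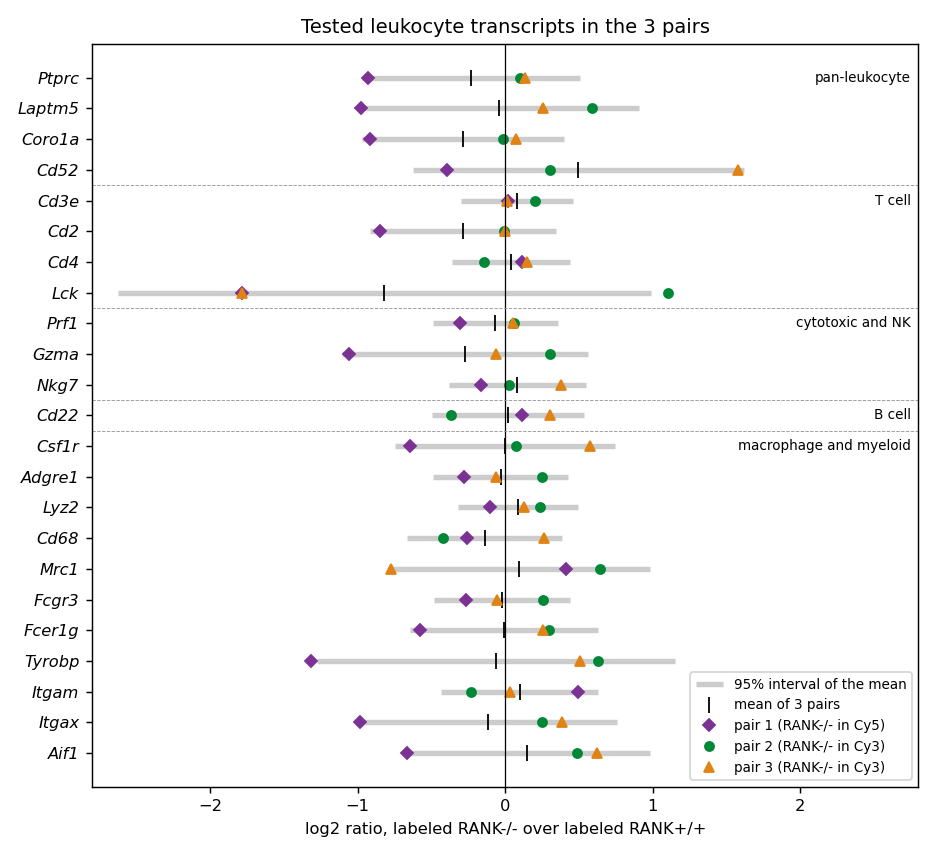
Log2 ratio, labeled RANK-/- over labeled RANK+/+, of the 23 tested members in each pair, with the mean (black tick) and its 95% interval from the limma fit (gray bar), grouped by lineage list. The diamonds of pair 1 lie left of 0 in 18 of the 23 members, and every gray bar crosses 0.

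The direction of the members changed with the pair. Their median log2 ratio was -0.39 in pair 1, 0.23 in pair 2 and 0.14 in pair 3, where the median over all genes tested was 0.015, -0.012 and 0.001. In pair 1, 18 of 23 members were below 0, where 48.0% of all genes were. In pair 2, 17 of 23 members were above 0, where 48.3% of all genes were. In pair 3 the count was again 17, against 50.1% of all genes. With median centring the members' median in pair 3 was -0.024, so the direction in that pair depended on the normalization. The ratio was below 0 in pair 1 and above 0 in pair 2 in 15 of 23 members, where 30.5% of all genes had these signs. At least a 2-fold lower signal in pair 1 was seen in 3 members, Lck, Gzma and Tyrobp, where 2.84% of all genes had one. That count was 2 with median centring (2.01% of all genes), 4 with spatial loess (2.86%) and 7 with no background subtraction (3.44%). It was 8 with a normexp offset of 16 (3.84%), 8 in the authors' series table (4.31%) and 10 with processed signals (8.49%). In the same pair 0 members had a 2-fold higher signal (3.66%). Lck was 2-fold higher in pair 2, as 2.45% of all genes were, and 0 members were 2-fold lower there (2.37%). In pair 3, Cd52 was 2-fold higher (4.91% of all genes) and Lck 2-fold lower (3.01%). Only Cd3e was higher in the RANK-/- RNA in all 3 pairs (9.93% of all genes were) and only Cd2 was lower in all 3 (9.65%), and both had ratios within 0.02 of 0 in 2 of the pairs. Without pair 1, the median of the members' means moved from -0.02 to 0.11 and 14 of 23 means changed sign. Without pair 2 the count of changed signs was 3 and without pair 3 it was 5. The share of all genes that changed sign is not given here, and many of the members' means lay near 0.

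The same signs follow the dye. Turned as Cy3 over Cy5, a direction chosen after the values were seen, the ratio was above 0 in all 3 pairs in 11 of 23 members, where 13.5% of all genes were: Ptprc, Laptm5, Cd52, Prf1, Nkg7, Csf1r, Lyz2, Fcer1g, Tyrobp, Itgax and Aif1. The ratio favored Cy5 in all 3 pairs in 0 members, where 15.4% of all genes did. That count depended on the normalization: with median centring, Cd3e, Cd4, Nkg7, Cd22 and Itgam favored Cy5 in all 3 pairs. The limma fit of this ratio called 0 members and 0% of all genes at an adjusted p under 0.05. At an unadjusted limma p under 0.05, 4 members were higher in Cy3 (2.99% of all genes) and 0 in Cy5 (3.69%). They were Aif1 by 0.59, Tyrobp by 0.82, Laptm5 by 0.61 and Fcer1g by 0.38 on the log2 scale, each with a limma adjusted p of 0.741. By the labels, no pair held its own dye swap, so dye and pair 1 cannot be told apart in these ratios.

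Levels also differed between pairs in both genotypes and both dyes. Both RNAs of pair 1 were brighter than both RNAs of pair 3 in 17 of 23 members, where 12.8% of all genes tested were. The highest of the 6 levels was that of the RANK+/+ RNA of pair 1 in 15 members (16.3% of all genes), and the lowest was that of the RANK+/+ RNA of pair 3 in 12 (18.5% of all genes). The range over the 6 RNAs was 3.43 for Cd52, 2.47 for Tyrobp and 2.20 for Coro1a on the log2 scale. It was 0.20 for Cd3e and 0.185 for Cd4, so the signal of the probes that stood for these T cell genes hardly varied. The second Cd4 probe had a mean level of 6.205 and was above background on 1 array in each genotype's channel. Whether the flat signal of the bright probes reflects a steady transcript level was not tested. As a description over the 6 RNAs, which share arrays and dyes and are not independent, the level followed that of Ptprc with a Pearson r of at least 0.8 in 11 of the 22 other members, where 3.63% of all genes did. The closest were Cd2 (r = 0.99), Tyrobp (r = 0.97), Laptm5 (r = 0.96) and Itgax (r = 0.96), and the least alike were Cd4 (r = -0.52) and Mrc1 (r = -0.36). Ptprc itself was at 7.38 in the RANK+/+ RNA of pair 1 and at 6.08 to 6.45 in the others, near the floor. The r values with Ptprc therefore depend largely on that RNA and do not describe a graded change over all 6 RNAs.

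Further leukocyte genes, listed by lineage beside the members, gave 0 genes called by limma and similar medians by pair. Other pan-leukocyte genes had medians of -0.31, 0.03 and 0.15 in pairs 1, 2 and 3 (15 of 16 tested), other T and NK cell genes -0.53, 0.06 and 0.03 (12 of 20), and other macrophage genes -0.17, 0.27 and 0.19 (13 of 16). Other B and plasma cell genes had medians of -0.44, 0.04 and 0.08 (5 of 10) and dendritic cell genes -0.22, 0.40 and 0.10 (5 of 8). The medians of these lists thus had the signs of the members' median in each pair. The widest mean changes in them were the pan-leukocyte genes Lsp1 (mean 0.76) and Ikzf1 (0.45), the T cell genes Cd6 (-0.98) and Tcf7 (-0.65), the B cell genes Pou2af1 (0.77) and Jchain (-0.62), the macrophage genes Ctss (0.90) and Cd14 (0.62), and the dendritic cell genes Irf8 (0.32) and Ccr7 (-0.35). None of these passed the limma threshold, and their limma adjusted p was 0.999.

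Neutrophil and mast cell genes had a median of -0.96 in pair 1, -0.03 in pair 2 and -0.04 in pair 3, with 9 of 14 tested. S100a8 and S100a9, calcium-binding proteins abundant in neutrophils, had ratios of -3.99 and -4.12 in pair 1. In pair 2 their ratios were 0.07 and -0.04, and in pair 3 they were -0.11 and -0.25. These transcripts stood far from 0 in pair 1 alone, on the same side as most members, and their limma adjusted p was 0.999. Red cell and platelet genes had medians of -0.75, -0.16 and 0.44 (5 of 8 tested), with Alas2 at a mean of 0.51 and Pf4 at -0.27.

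Cells that the CD45- gate keeps were measured by lists of epithelial, fibroblast and endothelial genes. The members' signs were shared only in part. The fibroblast median had them in pairs 2 and 3, the endothelial median in pairs 1 and 3 and the epithelial median in pair 3. Below 0 in pair 1 and above 0 in pair 2 were 4 of 10 fibroblast, 2 of 10 endothelial and 1 of 10 epithelial genes, where 30.5% of all genes were. Epithelial genes had medians of 0.28, -0.69 and 0.96 in pairs 1, 2 and 3, with Krt19 at a mean of -1.71 and Muc1 at 0.63. Fibroblast genes had medians of 0.13, 0.57 and 1.88, with Col1a2 at a mean of 1.28 and Dcn at 1.24, and endothelial genes had medians of -0.01, -0.18 and 0.60, with Cldn5 at 0.56 and Tek at 0.21. These marker medians thus differed between pairs too, with 0 genes called by limma, and their part in the members' ratios was not tested. Genes of MHC class II presentation, which antigen-presenting leukocytes share with some epithelial cells, gave more signal in every RNA labeled RANK-/- than in its partner. This held in 7 of 7 genes, where 9.93% of all genes were higher in all 3 pairs. The class II medians were 0.91, 1.43 and 1.97. Cd74, the class II invariant chain, had a mean of 1.93 and H2-Aa, a class II alpha chain, one of 1.83, and 0 of the 7 passed the adjusted limma threshold. Over all genes, 80.4% did not have the same sign in all 3 pairs, and of the tested leukocyte members 21 of 23 did not.

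**Figure D4:**
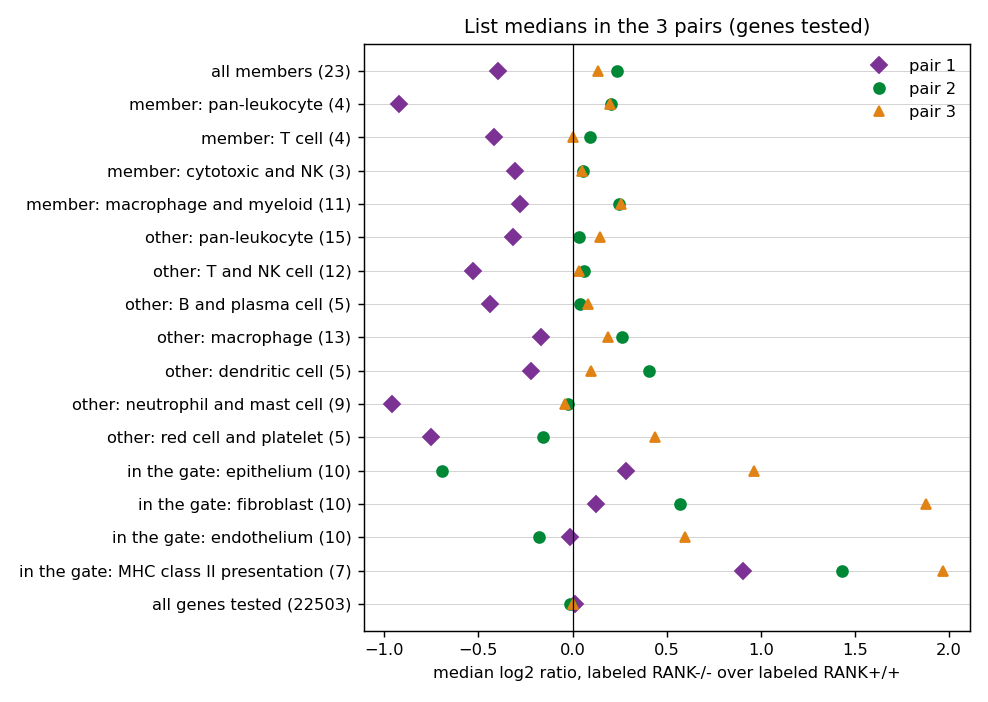
Median log2 ratio, labeled RANK-/- over labeled RANK+/+, of each gene list with at least 3 genes tested (number tested in parentheses), with a symbol for each of the 3 pairs. Pair 1 lies left of the other pairs in every leukocyte list, and also in the fibroblast, red cell and platelet, and MHC class II lists. The MHC class II list lies right of 0 in all 3 pairs.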

How the data were processed

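RNA of sorted CD45- tumor cells was measured on 2-color Agilent arrays. The authors extracted the spots with Feature Extraction 10.7.3.1, per the labels. The deposited scanner tables hold the median spot intensity and median background intensity of each channel, not normalized, together with processed intensities. The deposited series table holds log2 ratios normalized by the authors, with a direction that was not stated. Its columns correlated at r = 0.977 to 0.980 with the scanner ratios turned as RANK-/- over RANK+/+, and their medians lay between -0.00763 and 0.00732, so the direction and centring were read from the values. Both the processed intensities and the series table served only as alternatives.

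Median signals were corrected with normexp (offset 50) and normalized by intensity loess and Aquantile in limma 3.58.1 (R 4.3.3). Control spots (3671 per array) and outlier spots (212 to 260 gene spots) were left out, and 0 gene spots were saturated. Spots of a probe were averaged (55681 probes, 28026 with a RefSeq symbol by accession), ratios were turned to RANK-/- over RANK+/+ by the labeled dyes, and arrays A and B were averaged to n = 3 pairs. A probe was kept when, in the channel of one genotype, both arrays of 2 or 3 pairs had it well above background (30230 probes), and the brightest kept probe stood for its gene. Genes were tested by limma (intercept only, two-sided, Benjamini-Hochberg over 22503 genes, threshold 0.05), which was tested on simulated data. Levels are normalized log2 intensities of 1 channel, open to dye bias, and are compared only within a probe. Precision is limited by the number of RNA pairs, n = 3.

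The members and lists were chosen with earlier results of these data known. Named genes were Ptprc, the highest and lowest mean of each member list, and the 2 largest absolute means of each other list. Alternatives in background correction, normalization, filter, probes, arrays, pairs, dye term and test were run. Promoter windows came from a RefSeq table of GRCm38.p6.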

Additional observations from a re-analysis of the deposited data

How the results depend on the processing

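The number of members called by limma was 0 under every alternative that was run. It was 0 with no replicate block (channels taken as 3 RNAs per genotype), 0 with a dye term and 0 by rank product. Same-numbered RNAs share arrays, but their deviations from the group means correlated at only -0.0345, -0.214 and -0.0326 in pairs 1, 2 and 3. Over all genes, 646 had an unadjusted limma p under 0.05, against 1206 with no filter on dim probes and 461 to 1877 with one pair left out.

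The single member higher in all 3 pairs became 0 with no background subtraction, median centring, Agilent processed signals, the series table or arrays B only. The single member lower in all 3 pairs became 0 with no background subtraction, spatial loess, processed signals, the strictest filter or arrays A only, and 3 with median centring or no filter. Members higher in Cy5 in all 3 pairs numbered 5 with median centring and 1 with processed signals or the series table, whereas those higher in Cy3 numbered 8 to 16. The shares of all genes under these settings are not given here, so these dye counts cannot be set against a background. With processed signals the T cell median was -0.397 and the median of all members in pair 1 was -0.823. With one pair left out, the medians ran from -0.160 to 0.107 for all members, -0.378 to 0.272 for pan-leukocyte, -0.205 to -0.002 for T cell, -0.129 to 0.123 for cytotoxic and -0.160 to 0.181 for myeloid genes.

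Mean log2 ratios that changed sign were mostly near 0, and the cause was not tested. With no background subtraction they were Csf1r (0.015) and Fcer1g (0.016), and with offset 16 Laptm5 (0.052), Csf1r (0.012) and Fcer1g (0.025). With median centring they were Cd3e (-0.108), Cd4 (-0.151), Nkg7 (-0.101), Cd22 (-0.119) and Itgam (-0.159), and with spatial loess Cd22 (-0.002). With processed signals they were Laptm5 (0.524), Cd4 (-0.059), Cd22 (-0.042), Mrc1 (-0.154), Fcer1g (0.002), Itgam (-0.015) and Itgax (0.472), and in the series table Laptm5 (0.108), Fcgr3 (0.005) and Fcer1g (0.031). With the mean over probes they were Nkg7 (-0.062) and Csf1r (0.001), with arrays A only Csf1r (0.003), with arrays B only Cd22 (-0.001) and Fcer1g (0.005), and with a dye term Aif1 (-0.054). With one pair left out, the means ran from -0.414 to 0.119 (Ptprc), -0.360 to 0.424 (Laptm5), -0.466 to 0.031 (Coro1a), -0.045 to 0.941 (Cd52), -0.015 to 0.129 (Cd4), -0.129 to 0.054 (Prf1), -0.560 to 0.123 (Gzma), -0.068 to 0.201 (Nkg7), -0.125 to 0.208 (Cd22), -0.289 to 0.322 (Csf1r), -0.170 to 0.093 (Adgre1), -0.340 to 0.001 (Cd68), -0.181 to 0.528 (Mrc1), -0.161 to 0.102 (Fcgr3), -0.160 to 0.278 (Fcer1g), -0.404 to 0.568 (Tyrobp), -0.099 to 0.263 (Itgam), -0.368 to 0.315 (Itgax) and -0.088 to 0.555 (Aif1). Without pair 1, 14 of 23 means changed sign, without pair 2, 3 did, and without pair 3, 5 did.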
